A study of Mus musculus with 17 samples.

Results

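The genes described here are 49 members of mitochondrial and peroxisomal fatty acid oxidation, chosen by gene symbol from a mouse kidney RNA sequencing table of 42794 complete gene lines, in which all 49 had a line. Of the 49, 23 were taken as mitochondrial, 19 as peroxisomal and 7 as shared between organelles or acting elsewhere (Acad11, Eci2, Acot1, Crat, Slc27a2, Amacr and Acot12), from what is generally known of their proteins. The series holds 17 kidney libraries in 3 groups and concerns the glucagon receptor, encoded by Gcgr, in proximal tubule cells. Groups are called by the words in the library titles, and each library by its group and the number in its title. NC comprised 4 libraries of wild-type genotype. DKD_Vehicle comprised 6 libraries whose genotype field reads Ctr shRNA, so title and genotype differ on whether a control hairpin or a vehicle was given. DKD_shRNA comprised 7 libraries of genotype Gcgr shRNA, a short hairpin RNA against Gcgr that was meant for the proximal tubule. The series concerns diabetic kidney disease, abbreviated DKD in the titles. The way the disease was induced and the hairpin delivered, and the strain, age and sex of the mice, are not stated in the labels, and no control hairpin without the disease label is among the groups.

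Fatty acids are activated to acyl-CoA by synthetases before they can be oxidised. Mitochondria take long chains in through the carnitine shuttle and shorten them in repeated rounds of dehydrogenation, hydration, a further dehydrogenation and thiolysis, passing electrons on to the respiratory chain. Peroxisomes shorten very long and branched chains with oxidases that use oxygen directly, and hand the shortened chains on to mitochondria, while thioesterases and Nudix hydrolases break acyl-CoA and CoA down again. The proximal tubule of the kidney is rich in both organelles and draws most of its energy from fatty acids.

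Libraries held 13997657 to 17107876 reads on genes, as recovered from the deposited values, and 12183 to 12919 genes at or above 1 FPKM (fragments per kilobase of gene, scaled to library size, and so already divided by gene length). Gcgr, the targeted gene, went against the label. Its mean log2(FPKM + 1) was 1.04 lower in DKD_Vehicle than in NC (difference -1.04, exact two-sided permutation p = 0.00476), and in the libraries labelled DKD_shRNA it was 0.40 above DKD_Vehicle (exact permutation p = 0.00641) and below NC (difference -0.64, exact permutation p = 0.00303). Since Gcgr was not lower in this group than in DKD_Vehicle, the group is called by its label throughout. DKD_Vehicle 20 stood apart from the other libraries, with 7 white fat markers summing to 691 FPKM against at most 47.5 in any other library and 5 urothelial markers summing to 170.3 FPKM against at most 9.97. Results that rest on this library are given with and without it. Since no label links a library to its own animal, the p-values reflect only how far these libraries spread, and part of that spread may be technical.

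In wild-type kidney several of the 49 genes were among the most abundant transcripts. Slc27a2, a fatty acid transporter and very-long-chain acyl-CoA synthetase, had a mean level of 1217 ± 44.3 FPKM (SD, n = 4) in NC and ranked 22 among all genes of the table. Acsm2, a medium-chain acyl-CoA synthetase, followed at 608 ± 45.1 FPKM (SD, n = 4, rank 60), and Acaa1b, a peroxisomal thiolase, at 423 ± 14.6 FPKM (SD, n = 4, rank 87). Nudt19, a peroxisomal CoA hydrolase, and Ehhadh, the peroxisomal bifunctional enzyme, had 410.0 ± 66.0 and 393 ± 56.9 FPKM (SD, n = 4), which differed by less than their spread. Phyh, of phytanic acid breakdown, and Pecr, a peroxisomal reductase, had 295 and 262 FPKM. Among mitochondrial enzymes of the core spiral the highest was Acadm, the medium-chain dehydrogenase, at 255 ± 21.5 FPKM (SD, n = 4), followed by Acadl, the long-chain dehydrogenase, at 195 ± 12.9 FPKM (SD, n = 4). Of the 10 most abundant of the 49, 6 were peroxisomal and 3 were mitochondrial, and Slc27a2 was in the shared class. At the other end stood Acsf2, a mitochondrial acyl-CoA synthetase, at 3.54 ± 0.533 FPKM (SD, n = 4) and Hacl1, the lyase of alpha oxidation, at 1.35 ± 0.111 FPKM (SD, n = 4). Abcd2, a peroxisomal importer of very-long-chain acyl-CoA, was listed at 0 in NC 37 and NC 38 and was the only gene of the 49 that did not pass the filter on low values. The other 48 were tested.

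**Figure D1:**
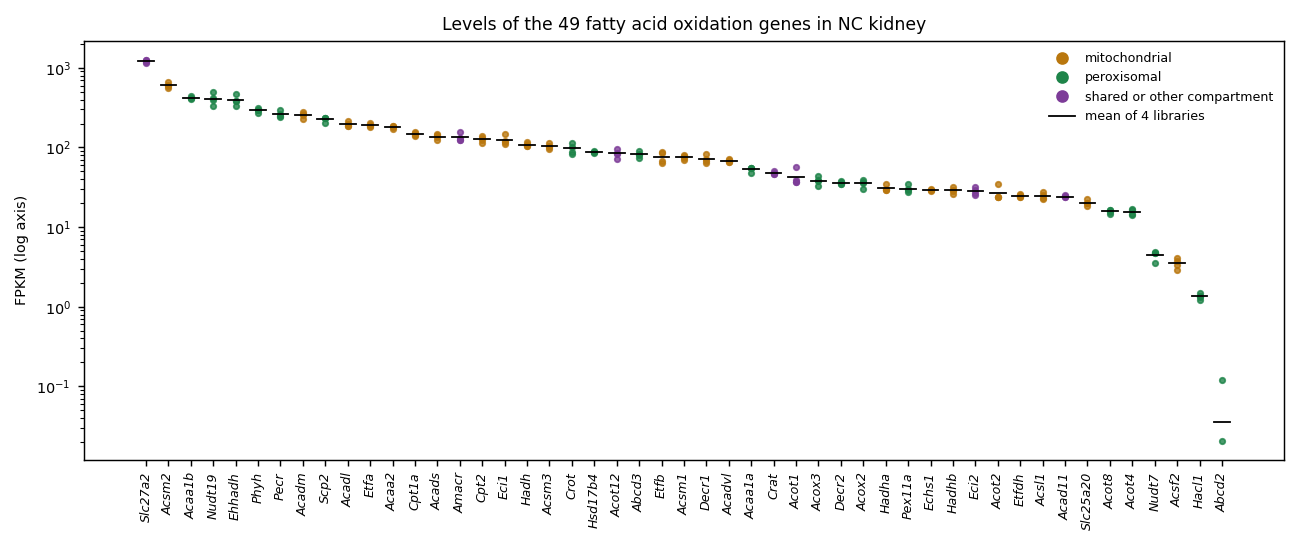
Level of each of the 49 genes in the 4 NC libraries, in FPKM on a log axis, ordered by mean. Points are libraries, bars are means of 4 libraries and colours mark the compartment. The 2 libraries in which Abcd2 was listed at 0 cannot be drawn on a log axis. Slc27a2 stood highest at a mean of 1217 FPKM, and peroxisomal genes filled 6 of the 10 highest places.

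The first comparison, DKD_Vehicle against NC, asks how the oxidation genes stood under the disease label. Of the 48 tested genes 7 passed the threshold (adjusted p under 0.05 by limma), 2 higher and 5 lower in DKD_Vehicle. Over all 13279 tested genes 7.49% passed, 3.58% higher and 3.91% lower. Mitochondrial genes split in both directions: Acsf2 and Decr1 rose, and Acsm1 and Acsm3 fell. In peroxisomes Acaa1b and Acox3 fell, and in the shared class Slc27a2 fell. The median log2 fold change was 0.08 over the 23 mitochondrial genes, -0.09 over the 18 tested peroxisomal genes and -0.10 over the 7 shared genes, beside 0.01 over all tested genes. Values lay above 0 for 14 of 23 mitochondrial genes, 6 of 18 peroxisomal genes and 1 of 7 shared genes. The difference between the compartments was not tested.

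**Figure D2:**
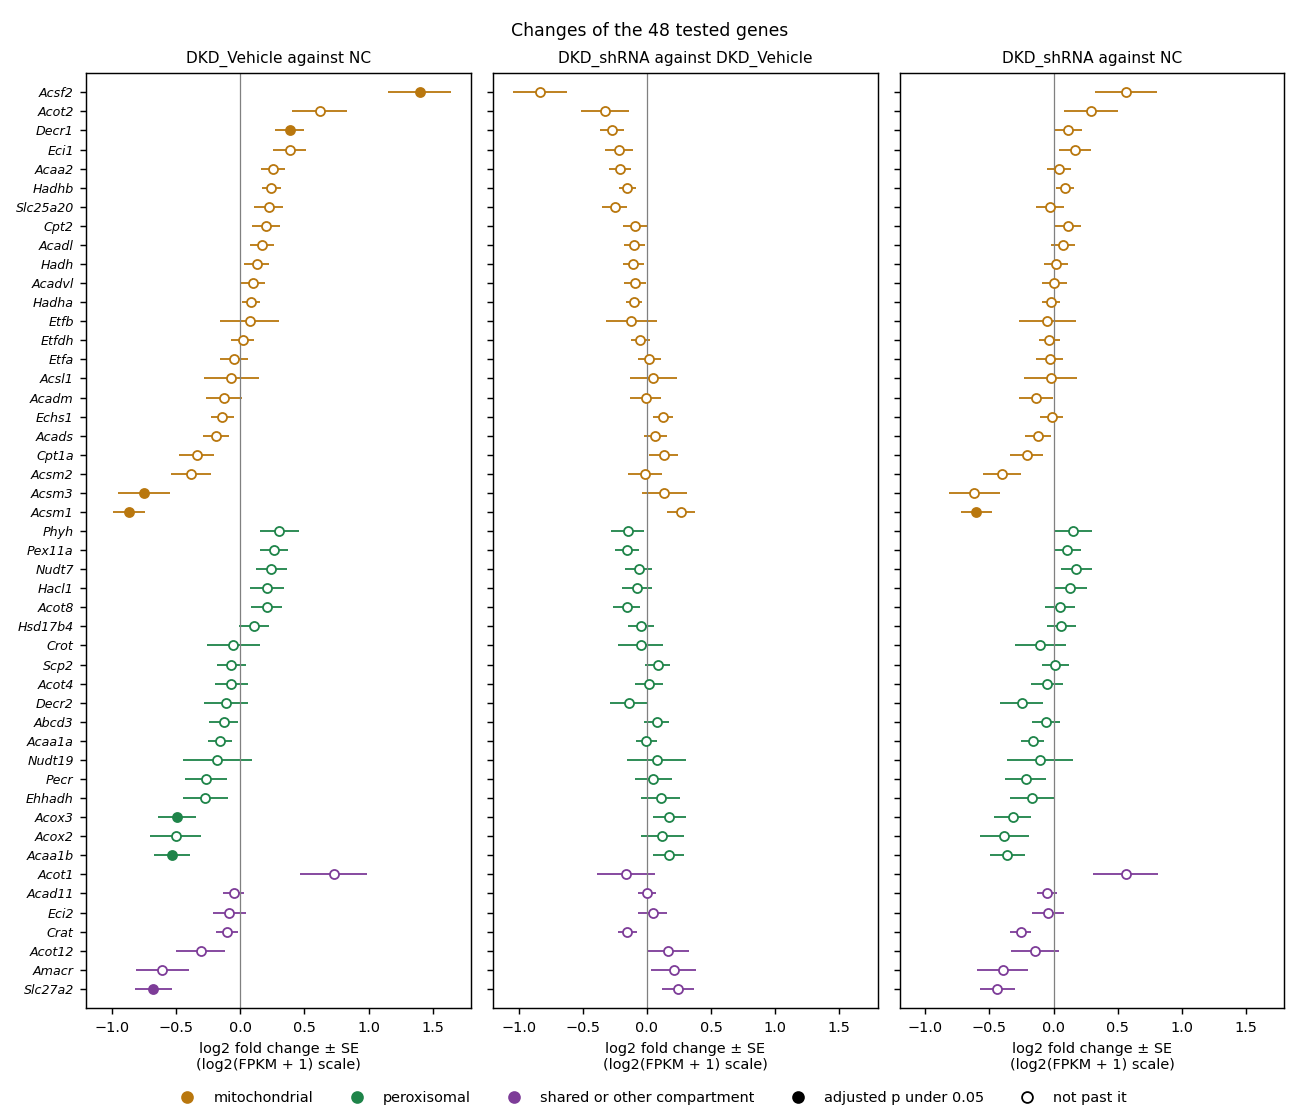
Log2 fold change with its standard error for each of the 48 tested genes in the 3 comparisons, on the log2(FPKM + 1) scale. Filled points have an adjusted p under 0.05 and open points do not. DKD_Vehicle against NC holds 7 filled points, DKD_shRNA against DKD_Vehicle none, and DKD_shRNA against NC 1, for Acsm1.

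The largest rise was in Acsf2. Its levels were 4.11, 2.89, 3.80 and 3.35 FPKM in NC 37, 38, 39 and 41, and in the 6 DKD_Vehicle libraries they ran from 5.46 in library 19 over a median of 11.5 to 16.0 in library 1. Every DKD_Vehicle library lay above every NC library. The fold change was 2.64 on the log2(FPKM + 1) scale (log2 fold change 1.40 ± 0.25, SE, adjusted p = 0.00255), a scale that understates changes of low genes such as this one. The mean level was 11.4 ± 3.39 FPKM (SD, n = 6) in DKD_Vehicle. Acsf2 lies on chromosome 11 (94557102 to 94601871, minus strand, GRCm38) and shares no exon sequence with another annotated gene. It stayed past the threshold under all 28 alternative settings, with an adjusted p of at most 0.0146.

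Decr1 (chromosome 4, 15917240 to 15945507, minus strand), the mitochondrial dienoyl-CoA reductase needed for polyunsaturated fatty acids, rose by less. Its NC levels were 71.3, 67.3, 63.7 and 81.8 FPKM, and in DKD_Vehicle 5 libraries lay between 90.3 and 102 FPKM while library 20 had 72.0 FPKM, inside the NC range. The log2 fold change was 0.39 ± 0.11 (SE, adjusted p = 0.0442), and without DKD_Vehicle 20 it was 0.46 (adjusted p = 0.00992). Decr1 passed under 15 of 28 alternative settings, and lost its call when any of NC 37, 38 or 39, DKD_Vehicle 1, 4, 6, 8 or 19, or DKD_shRNA 15, 34 or 35 was left out. Its isomerase partner Eci1 was also higher in value (log2 fold change 0.38, adjusted p = 0.0762) without passing.

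The medium-chain synthetases Acsm2, Acsm1 and Acsm3 lie in this order in a cluster on the plus strand of chromosome 7, at 119554340 to 119600690, 119607026 to 119662515 and 119760923 to 119787513 (GRCm38). Acsm4, a related gene that did not pass the filter on low values, lies between Acsm1 and Acsm3 (119690026 to 119714565). Acsm1 had 69.4, 78.6, 74.3 and 81.6 FPKM in NC and 34.2 to 50.5 FPKM in DKD_Vehicle, with a median of 42.0, so that the groups did not overlap. It fell by 0.87 on the log2 scale (log2 fold change -0.87 ± 0.13, SE, adjusted p = 0.000678), the smallest adjusted p of the 48, and passed under all 28 alternative settings. Acsm3 had 106, 115, 95.6 and 103 FPKM in NC and 36.6 to 92.5 FPKM in DKD_Vehicle, with a median of 62.4, again without overlap, and its log2 fold change was -0.75 ± 0.20 (SE, adjusted p = 0.0316). Acsm2 had 595, 668, 611 and 559 FPKM in NC and 342 to 599 FPKM in DKD_Vehicle, where library 19 reached into the NC range. Its log2 fold change of -0.39 did not pass (adjusted p = 0.137). Of the alternative settings, only rescaling all libraries to the same total brought Acsm2 past the threshold. In both Acsm2 and Acsm3 the highest DKD_Vehicle library was 19 and the lowest was 20. Acsm3 passed under 20 of 28 settings and lost its call without any of NC 37, 38, 39 or 41, or without DKD_Vehicle 1 or 4. It shares exon sequence with Eri2 on the opposite strand, and whether counting used the strand is not stated in the labels, so reads of the overlap cannot be assigned.

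**Figure D3:**
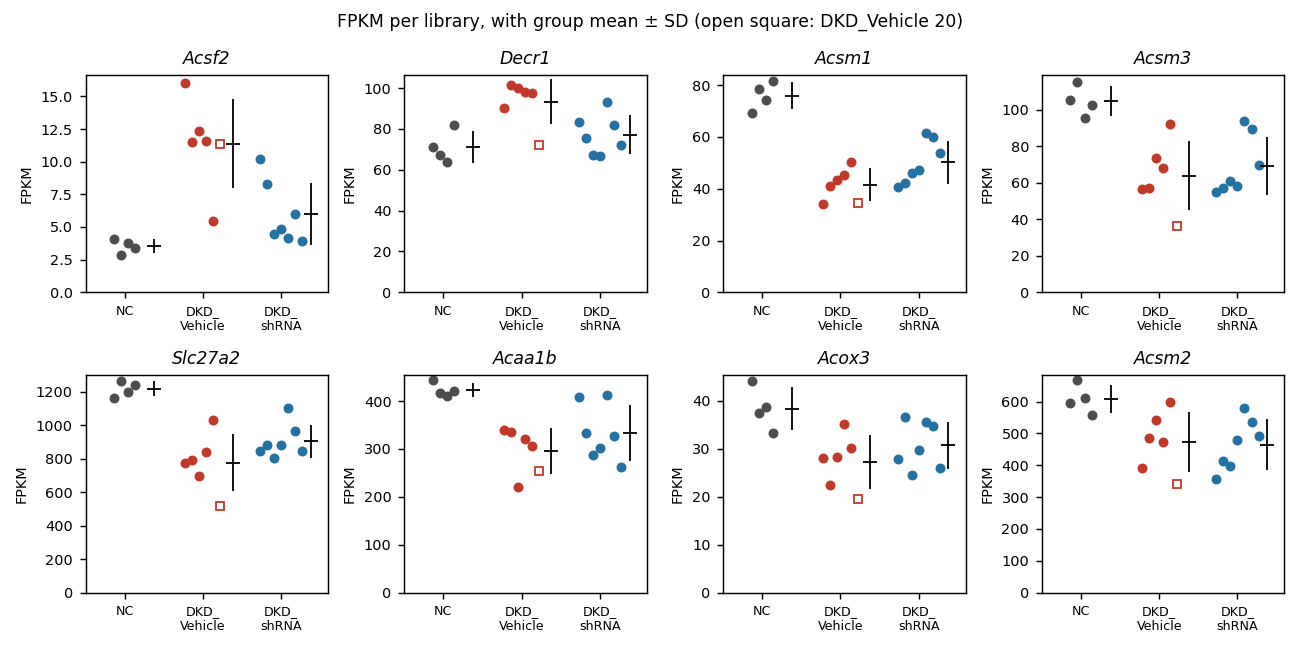
FPKM per library of the 7 genes that passed in DKD_Vehicle against NC, and of Acsm2, which did not pass. Points are libraries, crosses are means with SD bars, and the open square is DKD_Vehicle 20. Acsf2, Acsm1, Acsm3, Slc27a2 and Acaa1b show no overlap between DKD_Vehicle and NC, while Decr1, Acox3 and Acsm2 overlap.

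Slc27a2 (chromosome 2, 126552407 to 126588243, plus strand) had 1163, 1263, 1200.4 and 1242 FPKM in NC. In DKD_Vehicle it ran from 514 FPKM in library 20 over a median of 783 to 1034 FPKM in library 19, with no overlap. The log2 fold change was -0.68 ± 0.14 (SE, adjusted p = 0.00879), which left the gene at 0.624 of its NC level. It passed under all 28 alternative settings, with an adjusted p of at most 0.0445. Without DKD_Vehicle 20 the change was -0.57 (adjusted p = 0.00545).

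Both peroxisomal genes that fell encode enzymes of the beta oxidation spiral itself. Acaa1b, the inducible thiolase (chromosome 9, 119148023 to 119157093, minus strand), had 443, 417, 409.5 and 422 FPKM in NC and 219.8 to 339 FPKM in DKD_Vehicle, with a median of 313 and no overlap. Its log2 fold change was -0.53 ± 0.14 (SE, adjusted p = 0.0286). It passed under 22 of 28 settings and lost its call without any of NC 37, 38, 39 or 41, or without DKD_Vehicle 6. Acaa1a, a near-identical copy on the same chromosome with which reads may be shared, had a log2 fold change of -0.16 (adjusted p = 0.312). Acox3, an oxidase of branched chains (chromosome 5, 35583040 to 35615352, plus strand), had 44.1, 37.5, 38.6 and 33.2 FPKM in NC and 19.6 to 35.2 FPKM in DKD_Vehicle, with overlapping groups. Its log2 fold change was -0.50 ± 0.15 (SE, adjusted p = 0.0491). This call was the least stable of the 7, held under 11 of 28 settings, and was lost without any of the 4 NC libraries, without DKD_Vehicle 1, 4, 6 or 20 and without DKD_shRNA 13, 15, 31, 32, 34 or 35. Slc27a2, Acaa1b and Acox3 each share exon sequence with a gene on the opposite strand (Gm26697, Dlec1 and a Rik gene), so reads of those overlaps cannot be assigned either.

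Several further genes stood near the threshold without passing. Hadhb, of the trifunctional protein, had a log2 fold change of 0.24 (adjusted p = 0.0569), and Acot2, a mitochondrial thioesterase, of 0.62 (adjusted p = 0.0894). Acot1, its cytosolic neighbour on chromosome 12, had 0.73 (adjusted p = 0.0988), and since the Acot genes there are close copies, reads may be shared among them. Acaa2, the mitochondrial thiolase, had 179, 170.0, 185 and 186 FPKM in NC and 187 to 232 FPKM in DKD_Vehicle. These groups did not overlap, but the adjusted p was 0.116. Amacr, a racemase of branched chains, was lower in every DKD_Vehicle library (62.2 to 115 FPKM) than in every NC library (124 to 157 FPKM), with a log2 fold change of -0.61 (adjusted p = 0.0803). In all, 7 of the 48 genes had groups that did not overlap, 2 above and 5 below NC, against 10.1% of all tested genes, 4.71% above and 5.41% below.

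Ordered by step, activation and import held most of the calls. Of its 7 tested genes 1 rose and 3 fell, beside 3.58% and 3.91% of all tested genes, and 6 lay below 0 with a median log2 fold change of -0.39. Among those that fell, Acsm1 and Acsm3 lie in one gene cluster, so the calls are not spread evenly over this step. The carnitine shuttle had 0 of 5 genes past the threshold, among them Cpt1a, its entry enzyme (log2 fold change -0.34, adjusted p = 0.130), and Cpt2 (0.20, adjusted p = 0.276). The first dehydrogenation or oxidation had 1 of 7, Acox3, while Acadm, Acadl, Acadvl and Acads had log2 fold changes of -0.13, 0.17, 0.10 and -0.19. The later steps of the spiral had 1 of 10, Acaa1b, with a median of 0.01. The auxiliary enzymes of unsaturated fatty acids had 1 of 5, Decr1. Electron transfer (Etfa, Etfb and Etfdh) had 0 of 3, alpha oxidation and branched chains (Phyh, Hacl1 and Amacr) had 0 of 3, hydrolysis of acyl-CoA and CoA had 0 of 7, and peroxisome division had 0 of 1 (Pex11a). At an unadjusted limma p under 0.05 these 5 steps without a call had 1 gene of the shuttle lower, 0 of electron transfer, 1 of alpha oxidation and branched chains lower, 2 of hydrolysis higher and Pex11a higher. Of all tested genes, 23.4% had such a p, 11.6% higher and 11.8% lower. By voom on recovered reads, which called 10 of the 48 genes and 7.97% of all tested genes, Amacr, Eci1 and Hadhb passed as well, and the shuttle, electron transfer, hydrolysis and division had 0 calls.

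DKD_Vehicle 20 was the lowest of all 17 libraries for 24 of the 49 genes, 10 mitochondrial, 9 peroxisomal and 5 shared, and the highest for 1, Abcd2. Abcd2 read 1.01 FPKM there and at most 0.242 FPKM in any other library. In the same library the white fat gene Adipoq read 45.3 FPKM, the brown fat gene Ucp1 23.9 FPKM and the urothelial gene Upk3a 56.8 FPKM, against at most 2.43, 1.37 and 3.23 FPKM elsewhere. The divisor behind FPKM was 1.15 times the recovered reads on genes in this library, and 0.949 to 1.04 times in the others. A larger divisor lowers every FPKM value of a library. The share of all genes that were lowest in DKD_Vehicle 20 was not counted. The part of these tissues in the values of the 49 genes was not tested, nor that of the scaling in this library alone. With all libraries rescaled to the same total, 9 of the 48 genes passed, beside 6.18% of all tested genes, with Acsm2 and Amacr added. The median was then 0.07 over mitochondrial and -0.10 over peroxisomal genes. Without DKD_Vehicle 20, on the deposited scale, 9 of the 48 genes passed, beside 7.68% of all tested genes. Cpt2 (log2 fold change 0.29, adjusted p = 0.0449), Phyh (0.42, adjusted p = 0.0441) and Pex11a, a factor of peroxisome division (0.33, adjusted p = 0.0371), then rose, and Acox3 no longer passed (-0.41, adjusted p = 0.0738). In Phyh the 5 other DKD_Vehicle libraries had 353 to 434 FPKM against 269 to 317 FPKM in NC, and library 20 had 245 FPKM. The peroxisomal genes that passed were thus 0 higher and 2 lower with the library, and 2 higher and 1 lower without it. Their median moved from -0.09 to -0.003, and the mitochondrial median from 0.08 to 0.15.

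Taken library by library, the median deviation from the NC mean over the mitochondrial genes ran from -0.19 (library 20) to 0.22 in DKD_Vehicle and from -0.04 to 0.09 in NC, on the log2 scale. Over the peroxisomal genes it ran from -0.50 (library 20) to 0.12 in DKD_Vehicle and from -0.08 to 0.05 in NC. The mitochondrial median exceeded the peroxisomal one in 6 of 6 DKD_Vehicle libraries, by 0.03 to 0.31, in 6 of 7 libraries labelled DKD_shRNA, by up to 0.12, and in 3 of 4 NC libraries, by up to 0.04. The ranges of DKD_Vehicle and NC overlapped in this difference (0.03 against 0.04), and no test was made of it because the genes were chosen with results known. Acsm1, Acsm2 and Acsm3 lay below the mitochondrial list as a whole, with a median deviation of -1.11 to -0.18 in DKD_Vehicle and -0.88 to -0.15 in the libraries labelled DKD_shRNA. Acsm1 and Acsm3 had already been called lower from the same values, so this is no separate result. Markers of the proximal tubule, described below, lay at -0.50 to -0.07 in DKD_Vehicle and -0.51 to -0.03 in the libraries labelled DKD_shRNA. Citric acid cycle genes, the next step after mitochondrial oxidation, lay at 0.02 to 0.17 in DKD_Vehicle other than library 20, which had -0.28.

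**Figure D4:**
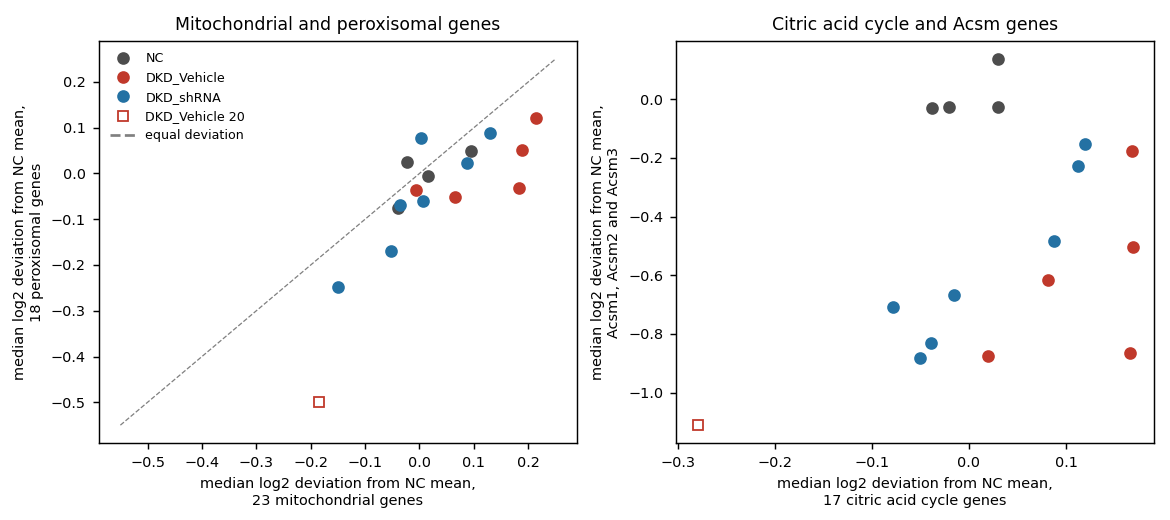
Each point is a library, and both axes give a median log2 deviation from the NC mean. On the left, 18 peroxisomal genes are plotted against 23 mitochondrial genes with a dashed line of equal deviation, and the 6 DKD_Vehicle libraries lie under the line. On the right, Acsm1, Acsm2 and Acsm3 are plotted against 17 citric acid cycle genes, and all libraries of both DKD groups lie under -0.1 on the vertical axis.

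Markers of the proximal tubule, where fatty acid oxidation is concentrated in the kidney, mostly lay below 0. Of 16 such markers 4 fell in DKD_Vehicle (Miox, Cubn, Slc5a2 and Slc22a8) and 0 rose by limma, beside 3.91% and 3.58% of all tested genes. The median log2 fold change was -0.36, with 12 markers below 0 and 4 above, the highest at 0.52. By voom on recovered reads 1 marker was higher and 4 were lower, beside 7.97% of all tested genes called. The summed level of the 16 markers was 33367 to 45684 FPKM in NC, 18083 to 37885 FPKM in DKD_Vehicle and 25214 to 47395 FPKM in the libraries labelled DKD_shRNA. No marker of the list was at 0 in any library. In whole-kidney RNA, fewer cells of a type and less RNA per cell cannot be told apart, and the part of proximal tubule content in the falls of Slc27a2, Acsm1, Acsm3 and Acaa1b was not tested. Markers of other tubule segments lay lower too. In DKD_Vehicle against NC 3.91% of all tested genes passed downward. Of intercalated cell markers 4 of 5 fell (median log2 fold change -0.65), as did 3 of 4 tested principal cell markers (-0.56). So did 3 of 7 markers of the thick ascending limb (-0.57) and 1 of 4 of the distal convoluted tubule (-0.32). Their part in the results was not tested either. Of 6 macrophage markers 5 lay above 0, 2 passed the threshold upward and 1 downward, beside 3.58% and 3.91% of all tested genes. Their summed level was 61.7 to 82.5 FPKM in NC, 63.5 to 152 FPKM in DKD_Vehicle and 87.2 to 153 FPKM in the libraries labelled DKD_shRNA. Whether this bears on Acsf2 was not tested. Acsf2 ran from 2.89 to 4.11 FPKM in NC (median 3.58) and from 5.46 to 16.0 FPKM in DKD_Vehicle (median 11.5). In the libraries labelled DKD_shRNA it ran from 3.96 to 10.2 FPKM (median 4.83).

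Related genes outside the 49 were examined from a list of 41, of which 34 were tested. In DKD_Vehicle against NC 1 rose and 5 fell by limma, 17.6% of the 34 beside 7.49% of all tested genes, with a median of -0.14. By voom on recovered reads 1 was higher and 9 were lower, beside 7.97% of all tested genes. Those that fell were Ivd, of leucine breakdown (105 to 64.3 FPKM, log2 fold change -0.72, adjusted p = 0.00190), Acsm5, a further medium-chain synthetase (-0.73, adjusted p = 0.0126), Acss1, the mitochondrial acetyl-CoA synthetase (-0.62, adjusted p = 0.00880), Acad12 (-0.39, adjusted p = 0.0125) and Mut, the mutase of propionate breakdown (-0.38, adjusted p = 0.0298). Acot6 rose (0.44, adjusted p = 0.0243) and passed under 21 of the 27 alternative settings in which it was tested. It lies among the Acot genes of chromosome 12 (84100654 to 84111349), where reads may be shared. Among 15 peroxisome biogenesis genes, 17 citric acid cycle genes and 8 regulators of fatty acid oxidation, limma and voom on recovered reads called 0 in any of the 3 comparisons. At an unadjusted limma p under 0.05, DKD_Vehicle against NC held 2 biogenesis genes and 2 regulators, all lower, and 0 citric acid cycle genes, and the other comparisons held 0 of the 3 lists. Over all tested genes the share in DKD_Vehicle against NC was 23.4%, with 11.8% lower. It was 7.32% in DKD_shRNA against DKD_Vehicle and 16.2% in DKD_shRNA against NC. Ppara, the nuclear receptor that drives many of the 49 genes, had a log2 fold change of -0.23 (adjusted p = 0.610) and the coactivator gene Ppargc1a of -0.30 (adjusted p = 0.156).

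The upstream sequence of Acsf2, Acsm1 and Acaa1b is shown because these carry the largest mitochondrial and peroxisomal changes of the first comparison, and that of Acsm2 and Acsm3 because they lie in one cluster with Acsm1. RefSeq promoter windows on GRCm38, 250 bases before to 50 after the start site, matched 43 of the 49 genes, and the stretches printed are the parts outside annotated exons. For Acsm1 the start used by RefSeq lies inside the gene as bounded above, and the window follows that start. They are chr11:94601872-94602036 on the minus strand for Acsf2, chr7:119554090-119554339, chr7:119617562-119617780 and chr7:119760673-119760922 on the plus strand for Acsm2, Acsm1 and Acsm3, and chr9:119157094-119157343 on the minus strand for Acaa1b. Each is written in the direction of transcription, and capitals mark 4 motifs on either strand, where neighbouring matches may join. The GC box was searched as GGGCGG and the TATA box as TATAAA. The third was the CCAAT box, spelled by its name, and the last was GTTAAT, a portion of the HNF1 motif.
Acsf2: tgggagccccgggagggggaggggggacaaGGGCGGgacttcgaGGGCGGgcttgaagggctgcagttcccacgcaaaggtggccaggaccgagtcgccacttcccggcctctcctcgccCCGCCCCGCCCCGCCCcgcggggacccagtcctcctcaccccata
Acsm2: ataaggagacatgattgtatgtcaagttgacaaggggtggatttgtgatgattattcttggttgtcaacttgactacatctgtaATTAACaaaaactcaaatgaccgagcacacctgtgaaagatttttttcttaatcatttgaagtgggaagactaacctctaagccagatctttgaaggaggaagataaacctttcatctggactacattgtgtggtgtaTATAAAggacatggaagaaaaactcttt
Acsm1: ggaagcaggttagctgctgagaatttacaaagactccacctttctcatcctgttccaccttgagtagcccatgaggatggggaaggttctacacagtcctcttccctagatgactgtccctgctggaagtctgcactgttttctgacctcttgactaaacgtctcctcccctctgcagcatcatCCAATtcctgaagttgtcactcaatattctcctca
Acsm3: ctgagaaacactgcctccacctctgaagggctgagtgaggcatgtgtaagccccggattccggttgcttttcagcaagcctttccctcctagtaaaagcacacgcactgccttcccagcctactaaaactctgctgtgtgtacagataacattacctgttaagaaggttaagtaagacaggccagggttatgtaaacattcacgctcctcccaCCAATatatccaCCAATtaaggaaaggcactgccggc
Acaa1b: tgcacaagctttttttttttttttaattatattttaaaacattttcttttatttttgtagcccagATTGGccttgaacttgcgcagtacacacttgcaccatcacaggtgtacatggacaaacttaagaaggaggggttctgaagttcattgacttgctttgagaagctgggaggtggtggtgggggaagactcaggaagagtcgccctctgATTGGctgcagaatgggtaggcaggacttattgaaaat
The Acsf2 stretch was 73.9% G and C and held 5 GC boxes. The Acsm2 stretch was 36.0% G and C and held TATAAA 28 bases before the start site and no GC box, and Acsm1, Acsm3 and Acaa1b held CCAAT and no GC box. Across whole windows, GGGCGG was found in 30 of 43 genes (69.8%, against 38.2% of 27025 genes with a window), in 14 of 21 mitochondrial, 11 of 17 peroxisomal and 5 of 5 shared genes. CCAAT was found in 21 (48.8%, against 41.1%), TATAAA in 2 (4.65%, against 15.7%) and GTTAAT in 3 (6.98%, against 8.24%). The genes compared with include genes not expressed in kidney. Median G and C content of whole windows was 60.3% in mitochondrial, 57.3% in peroxisomal and 62.3% in shared genes, against 53.3% over all genes. The part of base content and of expression in these motif shares was not tested. The DR1 repeat bound by PPAR and RXR, a pair of AGGTCA copies around a spacer base, was found in 0 of 43 genes (against 0.0481%), its looser form with any base at the fourth position of each copy in 0 (against 0.451%), and CAAAGTCCA, an HNF4 site, in Abcd3 alone (2.33%, against 0.555%). TNAAGGTCA, an ERR site, was found in 0 (against 1.43%), the HNF1 palindrome in 0 (against 0.0111%) and the HNF1 core in Acsm2 alone (2.33%, against 0.466%). Acsm2 has 2 windows, and the HNF1 core lies in the one at chr7:119561458-119561757, outside the stretch printed. All motifs were searched on both strands. These are matches of letters in a short window and say nothing of binding.

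The second comparison, DKD_shRNA against DKD_Vehicle, asks what the hairpin label changed under the disease label, with the reservation on Gcgr given above. By limma 0 of the 48 genes passed, as did 0% of all tested genes, and under the 28 alternative settings, voom on recovered reads among them, 0 of the 48 passed as well. At an unadjusted p under 0.05 there were 6 of the 48, 1 higher and 5 lower in the libraries labelled DKD_shRNA, beside 7.32% of all genes, 4.1% higher and 3.22% lower. The 5 lower ones were mitochondrial: Acsf2, Decr1, Slc25a20 (the carnitine carrier), Acaa2 and Hadhb. The 1 higher one was Acsm1. The median log2 fold change was -0.09 over the mitochondrial genes, with 16 of 23 below 0, and 0.01 over the peroxisomal genes, with 9 of 18 below 0, beside -0.004 over all tested genes. The peroxisomal median took either sign across the alternative settings.

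Acsf2 had the smallest p of the 48 in this comparison. In the libraries labelled DKD_shRNA it ran from 3.96 FPKM in library 35 over a median of 4.83 to 10.2 FPKM in library 13, against 5.46 to 16.0 FPKM in DKD_Vehicle. The groups overlapped through DKD_Vehicle 19 and DKD_shRNA 13, 15 and 34. The log2 fold change was -0.83 ± 0.21 (SE, 95% interval -1.28 to -0.39), with an unadjusted limma p of 0.00102 and an adjusted p of 0.270. Decr1 had 66.8 to 93.2 FPKM, with a log2 fold change of -0.27 (95% interval -0.47 to -0.07, adjusted p = 0.515). For Acsm1, at 40.7 to 61.5 FPKM, the log2 fold change was 0.27 (95% interval 0.04 to 0.50, adjusted p = 0.603), and for Slc27a2, at 804 to 1100.0 FPKM, 0.24 (95% interval -0.02 to 0.50, adjusted p = 0.702). For Acsm2 the interval was -0.30 to 0.26 around -0.01, and for Acadm -0.26 to 0.24 around -0.01. Groups did not overlap for 0 of the 48 genes, against 0.203% of all genes. Without DKD_Vehicle 20 the median was -0.14 over mitochondrial and -0.06 over peroxisomal genes, and the smallest adjusted p was 0.258, for Decr1.

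The third comparison, DKD_shRNA against NC, shares its NC libraries with the first, and the second shares DKD_Vehicle with the first, so the 3 are not independent of each other. Acsm1 alone fell (50.2 ± 8.29 FPKM, SD, n = 7, log2 fold change -0.60 ± 0.12, SE, adjusted p = 0.0152), 1 of 48 genes against 2.02% of all tested genes, 1.42% higher and 0.595% lower. At an unadjusted p under 0.05 there were 2 genes higher and 7 lower, beside 8.8% and 7.4% of all genes. It lost its call without NC 38, 39 or 41, with an adjusted p of at most 0.0677. Its levels did not overlap with NC, nor did those of Acsm3, Slc27a2 and Crat, the carnitine acetyltransferase, which made 4 of 48 genes, all below NC, against 5.54% of all tested genes, 3.31% above and 2.23% below. Acsm3 had 54.9 to 93.9 FPKM (log2 fold change -0.62, adjusted p = 0.125), Slc27a2 a mean of 903 FPKM (-0.44, adjusted p = 0.126) and Crat at most 41.7 FPKM against 46.1 to 50.3 FPKM in NC (-0.26, adjusted p = 0.127). With DKD_Vehicle 20 left out of the fit, which changes the shared estimate of the spread, these 3 passed too (adjusted p = 0.0493, 0.0321 and 0.0375), beside 2.48% of all genes. Acsm2 did not pass in the main fit, but passed as lower with libraries rescaled to the same total and with sample weights. Acsf2 lay at 0.56 (adjusted p = 0.247) and Acot1 at 0.56 (adjusted p = 0.282).

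Set side by side, the mean level of Acsf2 was 3.54, 11.4 and 5.98 FPKM in NC, DKD_Vehicle and the libraries labelled DKD_shRNA, and that of Decr1 was 71.0, 93.3 and 77.1 FPKM. Acsm1 had 76.0, 41.5 and 50.2 FPKM, Acsm3 had 105, 64.0 and 69.2 FPKM and Acsm2 had 608, 472 and 465 FPKM. Slc27a2 had 1217, 776 and 903 FPKM, and Acaa1b had 423, 296 and 333 FPKM. In each of these genes except Acsm2 the mean of the libraries labelled DKD_shRNA lay between the other means. None of these genes passed the test against DKD_Vehicle. All of them except Acsm2 had passed in DKD_Vehicle against NC, and so were selected for a large difference between those groups. Such a selection alone favours in-between means in the remaining group, so this order cannot show an effect of the hairpin label. Crat, with 47.7, 44.5 and 39.7 FPKM, was lowest in the libraries labelled DKD_shRNA.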

How the data were processed

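Kidney RNA was extracted with Trizol and sequenced from SMARTer mRNA-Seq libraries, per the labels' protocols. The authors deposited 1 table of FPKM per gene and library, on GRCm38 (mm10) per the submitters' processing notes. No label names the aligner, counter or strand setting, so genes that overlap or have near-identical copies are uncertain. Multiplied by gene length, low values were whole reads in 100% of cases within 0.05 of a step, which gave the read totals. Of the gene lines, 1 incomplete line was left out.

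FPKM was transformed to log2(FPKM + 1), which understates changes of low genes. Genes with at least 1 FPKM in 4 or more libraries (13279) were fitted with limma 3.58.1 (limma-trend, R 4.3.3), 1 mean for each of 3 groups, with Benjamini-Hochberg adjustment over all tested genes and a threshold of 0.05. The script was tested on simulated data. Chi-square per degree of freedom between libraries of a group was 7.14 to 76.1, above the 1 that counting noise gives, and each library counted as 1 replicate. Gcgr was tested with an exact two-sided permutation test. All 49 genes could be named, with every gene passing named, and of related lists up to 5 passing genes per direction. The members and lists were chosen with earlier results of these data known. Alternatives covered the pseudocount (0.1 and 5), filters, scaling, voom, robust fitting, sample weights, fitting only the groups compared and leaving out each library.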

Additional observations from a re-analysis of the deposited data

Results flagged for a closer look

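Within a group, a gene's highest or lowest library was singled out where its gap to the next library was large for the group's range (Dixon's 95% limit), which chance gives in about 1 in 20 groups. Of 144 combinations of gene and group, 11 met it. NC 41 was highest for Hadha (34.5 FPKM, next 30.0), Acot2 (34.6 FPKM, next 24.2) and Acot1 (56.1 FPKM, next 39.3) and lowest for Acaa1a (48.3 FPKM). NC 39 was lowest for Scp2, the peroxisomal sterol carrier (204 FPKM, next 232), and Nudt7, a CoA hydrolase (3.50 FPKM, next 4.67). DKD_shRNA 13 was highest for Acot2 (52.7 FPKM, next 36.2), Acot8, a peroxisomal thioesterase (22.4 FPKM, next 16.4), and Nudt7 (6.88 FPKM, next 5.36), and DKD_shRNA 29 was lowest for Acaa1a (36.9 FPKM, next 46.5). DKD_Vehicle 20 was lowest for Abcd3, the main peroxisomal acyl-CoA importer (57.3 FPKM, next 75.9).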

How the results depend on the processing

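In DKD_Vehicle against NC the 7 calls became 3 with no filter on low values and 4 with only the groups compared in the fit. They became 9 with libraries rescaled to the same total, 17 with sample weights (11 higher, 6 lower) and 3 to 9 when 1 library was left out. Voom called 4 higher and 6 lower, against 2 higher and 5 lower. Acsf2, Acsm1 and Slc27a2 passed under each of the 28 alternatives. Against NC, the libraries labelled DKD_shRNA had 1 call, which became 4 with libraries rescaled to the same total, 2 with voom, 5 with sample weights, 4 with only the groups compared, 2 with DKD_Vehicle 20 and DKD_shRNA 31 both left out, and 0 to 4 when 1 library was left out. In DKD_shRNA against DKD_Vehicle the count stayed at 0, and Acsm3 (0.14) changed sign without DKD_Vehicle 20, at -0.011, and reached 0.25 without DKD_Vehicle 19. All 174 medians of a compartment under alternatives lay within 1 SD of the libraries, pooled over the groups with DKD_Vehicle 20 included. This limit is wide. In DKD_Vehicle the SD between libraries was 0.15 for the mitochondrial and 0.22 for the peroxisomal median. A median could change sign within the limit, so it does not show that the medians are stable. Over all tested genes, the 994 calls of DKD_Vehicle against NC became 597 with no filter, 2087 with sample weights, 487, 477 and 456 without NC 37, 38 and 39, and 659 without DKD_Vehicle 4. The 268 of DKD_shRNA against NC became 155 with no filter, 1070 with sample weights, 154 where the mean was at least 5 FPKM, 438 with only the groups compared, 131, 105 and 103 without NC 37, 38 and 39, and 165 and 170 without DKD_shRNA 13 and 35. The causes were not tested. No paired analysis was possible because the groups share no library numbers. With 4 NC libraries, small changes of single genes cannot be resolved, and Abcd2 was too low to test.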
